A study of Mus musculus with 6 samples.

Results

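Transcript levels of 10 helix-loop-helix regulators and their partners were described in Tyr-L and Tyr-H cells, which are subclones of B16, a mouse melanoma line. The 10 genes, of 20788 listed in at least 1 library, were chosen by name: the ID genes *Id1*, *Id2*, *Id3* and *Id4*, the blood transcription factor *Tal1* with its relative *Lyl1* and its partner *Lmo2*, and the E-protein genes *Tcf3*, *Tcf4* and *Tcf12*. They were selected with their difference between these same 6 libraries already known, so that difference is given for them as a description, with no p-value. Where a member is said to be called or not, the limits used for all genes serve only to place it, and this is no independent test of it. B16 comes from a C57BL/6 mouse, and single-cell-derived subclones had been divided by tyrosinase activity and use of tyrosine for melanin into low (Tyr-L) and high (Tyr-H). Both groups, with no further treatment named, were grown in low-glucose DMEM with serum, penicillin and streptomycin, and 3 mRNA libraries of each were sequenced from both ends with 150 bp reads. The sources used here do not say whether separate cultures, or more than 1 clone, lie behind the 3 libraries of a group, so the SD and p-values measure the spread between these libraries, which may be technical.

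ID proteins have a helix-loop-helix dimerization domain but no basic region for binding DNA. They pair with the E proteins encoded by *Tcf3* (E2A), *Tcf4* (E2-2) and *Tcf12* (HEB) and keep these from E-box sites, the short palindromes that basic helix-loop-helix dimers bind. TAL1 and LYL1 are tissue-restricted factors that need an E protein as partner and, in blood cells, bind DNA in complexes with LMO2, LDB1 and GATA factors. Signalling by bone morphogenetic proteins (BMP) through SMAD1, SMAD5 and SMAD9 is a classic inducer of ID genes, and ID proteins are generally linked to proliferation and to a block in differentiation.

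Values are FPKM, fragments scaled by the authors to transcript length and sequencing depth, and a gene missing from a library's table was taken as 0. Depth was estimated at 18900000 to 22100000 fragments per library, and the value of about 3 fragments is used below as a floor that covers counting error only. The 14336 genes that averaged 0.1 FPKM or more were compared with limma on log2(FPKM + 0.1). Genes are termed called where the adjusted p reached 0.05 or less and the level differed at least 2-fold in the fit, a log2 fold change beyond 1 in either direction. This quantity is given below as the log2 change, always Tyr-H against Tyr-L and with its standard error (SE). The libraries differed by a median of 0.0953 to 0.114 per gene on the log2 scale within a group and by 0.315 to 0.371 between groups. The 7 melanocyte markers were abundant in every library, with sums of 7343 to 7660 FPKM in Tyr-L and 5438 to 5958 FPKM in Tyr-H. In the fit described above *Tyr* was the marker called higher in Tyr-H, the other 6 had lower levels with an adjusted p within 0.05, and of these *Mitf*, the master regulator of melanocytes, was called, with 90.5 ± 6.64 FPKM in Tyr-L cells against 25.05 ± 1.56 in Tyr-H cells (SD, n = 3 each; adjusted p = 1.04e-07). The log2 changes of *Tyrp1* (-0.23) and *Mlana* (-0.24) were near the median of all tested genes (-0.15). These are RNA levels, whereas at the protein level the paper reported more tyrosinase, TYRP1 and TYRP2 in Tyr-H cells and no difference in MITF. The part of this shift in marker RNA in the results on the members was not tested. Of 11 erythroid and megakaryocyte markers 5 were unlisted everywhere, among them the globins, and the sums were 0.246 to 0.545 FPKM in Tyr-L and 0.234 to 0.718 FPKM in Tyr-H. Of 8 leukocyte markers 4 were unlisted everywhere, *Ptprc* among them, with sums of 0.363 to 0.537 and 0.523 to 0.596 FPKM. Of 6 endothelial markers 5 were unlisted everywhere, *Cdh5* and *Kdr* among them, with sums of at most 0.0472 and 0.0540 FPKM. Low values of other markers were present: *Lyz2*, a myeloid lysozyme, averaged 0.287 FPKM in Tyr-L and 0.390 in Tyr-H, and *Epor*, the erythropoietin receptor, 0.193 and 0.225, both above the floor in 6 of 6 libraries. *Cd79a*, a B-cell receptor subunit, averaged 0.157 and 0.0778 FPKM and was above the floor in 3 libraries. *Itga2b*, of the erythroid and megakaryocyte list, averaged 0.0745 FPKM in Tyr-L and 0.110 in Tyr-H, above the floor in 5 libraries. *Cd34*, of the leukocyte list, averaged 0.0178 and 0.0854 FPKM, and the 3 libraries above the floor were all Tyr-H. *Gp1ba* and *Pecam1* were above the floor in 2 and 3 libraries. The part of such transcripts in the level of *Tal1* was not tested.

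The start regions of *Id2*, *Id3* and *Tal1* are shown because these members lay beyond the limits of a call, all lower in Tyr-H cells. Each line is a RefSeq window on GRCm38.p6 from 250 bases before to 50 after the start site, on the strand of the gene, and capitals mark the E-box CANNTG and the GC-rich motif GGCGCC that BMP-regulated SMADs can bind, searched on both strands.
Id2 (chr12:25096043-25096342, minus strand): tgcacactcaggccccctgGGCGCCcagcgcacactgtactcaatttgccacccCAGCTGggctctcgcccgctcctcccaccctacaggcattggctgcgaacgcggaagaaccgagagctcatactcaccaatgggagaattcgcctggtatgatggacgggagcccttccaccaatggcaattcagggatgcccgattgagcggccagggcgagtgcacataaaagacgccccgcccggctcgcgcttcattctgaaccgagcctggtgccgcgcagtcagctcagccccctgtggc
Id3 (chr4:136143572-136143871, plus strand): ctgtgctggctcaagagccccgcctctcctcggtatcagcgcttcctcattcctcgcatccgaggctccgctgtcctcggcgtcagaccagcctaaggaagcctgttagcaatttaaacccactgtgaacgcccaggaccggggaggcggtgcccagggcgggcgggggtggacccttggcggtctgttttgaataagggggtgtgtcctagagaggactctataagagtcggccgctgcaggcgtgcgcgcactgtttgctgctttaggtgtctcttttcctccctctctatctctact
Tal1, first start (chr4:115056176-115056475, plus strand): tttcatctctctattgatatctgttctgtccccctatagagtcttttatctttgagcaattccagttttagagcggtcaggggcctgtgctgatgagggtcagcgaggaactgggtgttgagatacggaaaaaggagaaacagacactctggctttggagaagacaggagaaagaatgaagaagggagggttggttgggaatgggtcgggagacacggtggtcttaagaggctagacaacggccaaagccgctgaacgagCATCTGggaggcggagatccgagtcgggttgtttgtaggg
The *Id2* window held 1 E-box, beginning at position -196 from the start site, and 1 GGCGCC, beginning at -231. None of the 5 motifs searched was in the *Id3* window. In the *Tal1* window an E-box began at position 11, and AGATAA, the GATA-factor motif, was present on the other strand at -205, while the window at the second annotated *Tal1* start (chr4:115057561-115057860) held none of the 5. E-boxes stood in 72.3% of all 32851 windows, GGCGCC in 11.9%, AGATAA in 11.2%, TATAAA in 13.6% and CATGTG, an E-box that MITF binds, already counted among the E-boxes, in 14.2%. Windows were found for 7 of the 10 genes. The *Id4* window held GGCGCC at -148, the *Tcf3* window an E-box at -54 and the *Lyl1* window an E-box at -235. All 3 *Tcf12* windows held E-boxes, and that at -5 in the window of the most downstream start was the only CATGTG in the member windows examined. These matches describe the letters only.

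Of the 10 members 9 were listed and 7 were abundant enough to enter the fit over all genes, where *Id2*, *Id3* and *Tal1* passed both limits as lower in Tyr-H cells and 0 members passed as higher. These 3 calls use the contrast that was known when the members were selected, so they only describe which members lay beyond the limits, and they are used here to choose which start regions, neighbours and similar genes to show. Among all genes fitted 5.78% were called lower and 2.96% higher, and nothing about the members is read from these shares. Every Tyr-H library lay below every Tyr-L library for 5 members, and the groups overlapped for *Id1* and *Tcf12*. Over all tested genes the corresponding shares were 43.8% below and 20.2% above, so the values as deposited lean towards Tyr-L, with a median log2 change of -0.15. RNA from whole cultures cannot tell fewer expressing cells from less RNA per cell.

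**Figure D1:**
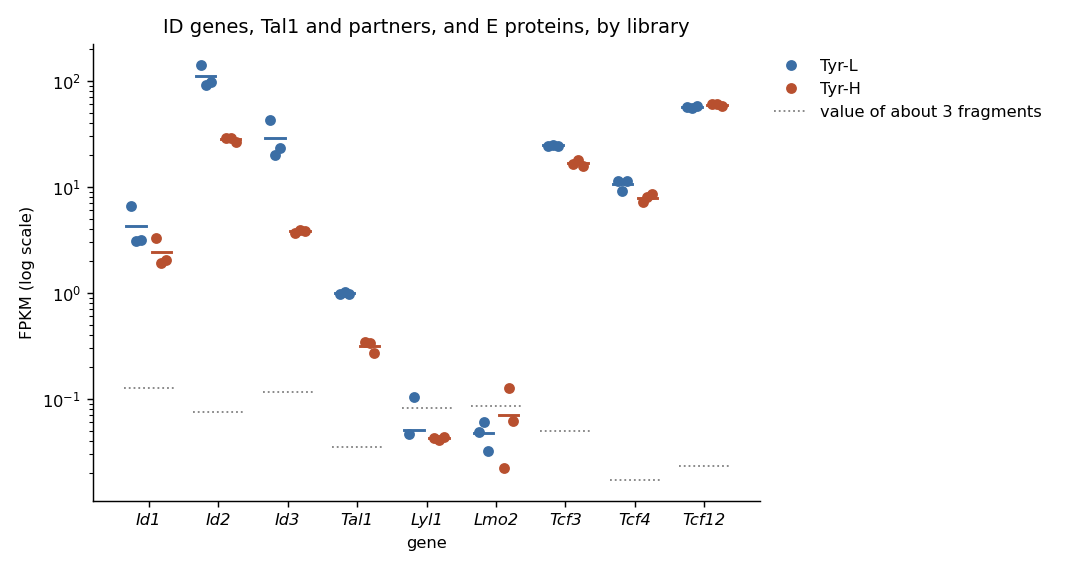
FPKM on a log scale of the 9 listed members in each library (points, blue Tyr-L and red Tyr-H), with the group mean as a bar and the value of about 3 fragments as a dotted line. The groups stand apart for *Id2*, *Id3* and *Tal1*, *Tcf12* is level, and most *Lyl1* and *Lmo2* points lie under the dotted line. An unlisted value is not drawn but counts as 0 in the mean.

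*Id2*, the most abundant ID gene here, lies on the minus strand of chromosome 12 (25093799 to 25097140, GENCODE M21 on GRCm38). It gave 142, 92.1 and 97.6 FPKM across Tyr-L libraries 1, 2 and 3, against 29.0, 29.2 and 26.7 across the Tyr-H libraries. The lowest Tyr-L library was thus above every Tyr-H library, with Tyr-L 1 standing above the other Tyr-L libraries. The means were 111 ± 27.4 FPKM in Tyr-L cells and 28.3 ± 1.40 in Tyr-H cells (SD, n = 3 each), giving a 3.91-fold difference and a log2 change of -1.94 (SE 0.14).

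Among the members *Id3* differed most between the groups. This gene, on the plus strand of chromosome 4 (136143497 to 136145755), gave 43.2, 19.8 and 23.3 FPKM across the Tyr-L libraries, against 3.71, 3.93 and 3.83 across the Tyr-H libraries. The Tyr-H libraries were nearly equal, and Tyr-L 1 was again the highest. Mean expression was 28.8 ± 12.6 FPKM in Tyr-L against 3.82 ± 0.112 in Tyr-H (SD, n = 3 each), 7.52-fold higher in Tyr-L, with a log2 change of -2.79 (SE 0.23). Relative to the mean, the SD was 43.8% in Tyr-L and 2.94% in Tyr-H.

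*Id1*, on the plus strand of chromosome 2 (152736251 to 152737410), was expressed at 6.58, 3.11 and 3.18 FPKM across the Tyr-L libraries and at 3.30, 1.92 and 2.05 across the Tyr-H libraries. Tyr-H 1 exceeded Tyr-L 2 and Tyr-L 3, so the groups overlapped. With 4.29 ± 1.98 FPKM in Tyr-L cells and 2.42 ± 0.762 in Tyr-H cells (SD, n = 3 each), *Id1* had a log2 change of -0.75 (SE 0.29) and was not called. Leaving out Tyr-L 1 brought it to -0.40. *Id4* (chromosome 13, 48261228 to 48266026), which overlaps 2 antisense genes, was unlisted in all 6 libraries, where 3 fragments would give 0.0353 to 0.0412 FPKM.

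*Tal1*, an early regulator of blood formation, is on the plus strand of chromosome 4 (115056426 to 115071755). It was weakly expressed, at 0.976, 1.02 and 0.966 FPKM across the Tyr-L libraries and 0.344, 0.337 and 0.269 across the Tyr-H libraries. All 6 values exceeded the floor of 0.0322 to 0.0377 FPKM, the groups did not overlap, and no Tyr-L library stood apart, unlike for the ID genes. The group means of 0.987 ± 0.0283 and 0.317 ± 0.0418 FPKM (SD, n = 3 each) differed 3.12-fold, a log2 change of -1.39 (SE 0.18). With 1 FPKM added in place of 0.1 it was -0.59 and *Tal1* was no longer called.

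The other blood factors of the group were at the limit of detection. *Lyl1* was listed at 0.0463 and 0.104 FPKM in Tyr-L 1 and Tyr-L 2, was unlisted in Tyr-L 3, and was at 0.0427, 0.0405 and 0.0437 FPKM throughout Tyr-H. Only Tyr-L 2 exceeded the floor of 0.0754 to 0.0882 FPKM, and *Lyl1* overlaps *Nfix* on the opposite strand, which makes its values uncertain. *Lmo2* gave 0.0490, 0.0602 and 0.0325 FPKM across the Tyr-L libraries, against 0.0221, 0.126 and 0.0613 across the Tyr-H libraries, of which only Tyr-H 2 exceeded the floor of 0.0796 to 0.0930 FPKM. Neither gene entered the fit and no fold is given.

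E-protein genes differed less. *Tcf3* (chromosome 10, 80409514 to 80433647) gave 24.4, 24.9 and 24.5 FPKM across the Tyr-L libraries, against 16.6, 17.99 and 15.6 across the Tyr-H libraries. The Tyr-L libraries were all higher, with means of 24.6 ± 0.254 and 16.7 ± 1.18 FPKM (SD, n = 3 each) and a log2 change of -0.55 (SE 0.05). *Tcf4* was at 11.4, 9.10 and 11.3 FPKM across the Tyr-L libraries, against 7.20, 7.95 and 8.54 across the Tyr-H libraries. These groups were also separate, at 10.6 ± 1.29 and 7.90 ± 0.670 FPKM (SD, n = 3 each) and a log2 change of -0.41 (SE 0.10). *Tcf12* (chromosome 9, 71842688 to 72111871), which spans several small annotated genes, gave 56.6, 55.7 and 57.9 FPKM across the Tyr-L libraries, against 61.1, 60.5 and 57.4 across the Tyr-H libraries. Its groups overlapped, at 56.7 ± 1.10 and 59.7 ± 1.97 FPKM (SD, n = 3 each), and its log2 change of 0.07 (SE 0.04) depended on scaling, with -0.021 when each library was rescaled to the same total, 0.14 after quantile normalization and 0.23 after median ratio scaling. None of the 3 E-protein genes was called.

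Levels of different genes are set side by side here because FPKM is scaled to transcript length. The length used for each gene is not known, as the quantifier and annotation are not given. The order of genes, and whether a ratio between genes lies above or below 1, may depend on it. *Tcf4* and *Tcf12* have 62 and 21 annotated transcripts. In Tyr-L cells the order of mean level was *Id2*, *Tcf12*, *Id3*, *Tcf3*, *Tcf4*, *Id1* and *Tal1*, and *Id3* and *Tcf3* did not differ beyond the spread of the libraries. In Tyr-H cells it was *Tcf12*, *Id2*, *Tcf3*, *Tcf4*, *Id3*, *Id1* and *Tal1*, and no neighbours in this order overlapped. The summed level of *Id1*, *Id2* and *Id3* was 192, 115 and 124 FPKM across the Tyr-L libraries and 35.99, 35.0 and 32.5 FPKM in the Tyr-H libraries. The summed level of the 3 E-protein genes was 92.4, 89.6 and 93.7 FPKM in Tyr-L and 84.9, 86.4 and 81.6 FPKM in Tyr-H. The ID sum was therefore above the E-protein sum in all Tyr-L libraries and below it in all Tyr-H libraries. ID level per E-protein level was 2.08, 1.28 and 1.32 in the Tyr-L libraries and 0.424, 0.405 and 0.399 in the Tyr-H libraries. The mean ratio was 1.56 ± 0.447 in Tyr-L and 0.409 ± 0.0130 in Tyr-H (SD, n = 3 each), 3.82-fold apart, and the log2 difference ranged from -2.02 to -1.67 when single libraries were left out. The ratio is built from members selected with this contrast known. Its difference and this range are therefore a description and show no independent stability.

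The composition of both sums also differed between the groups. *Id2* made up 77.6 ± 3.14% of the ID sum in Tyr-L and 81.9 ± 1.39% in Tyr-H, *Id3* 19.5 ± 2.71% and 11.1 ± 0.741%, and *Id1* 2.90 ± 0.463% and 6.99 ± 1.94% (SD, n = 3 each). For *Id2* the groups nearly met, with 74.1, 80.1 and 78.7% across the Tyr-L libraries and 80.5, 83.3 and 81.9% across the Tyr-H libraries. *Tcf12* made up 61.7 ± 0.403% of the E-protein sum in Tyr-L and 70.8 ± 1.05% in Tyr-H (SD, n = 3 each). These are shares of transcript levels, and proteins were not measured in the data used here.

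**Figure D2:**
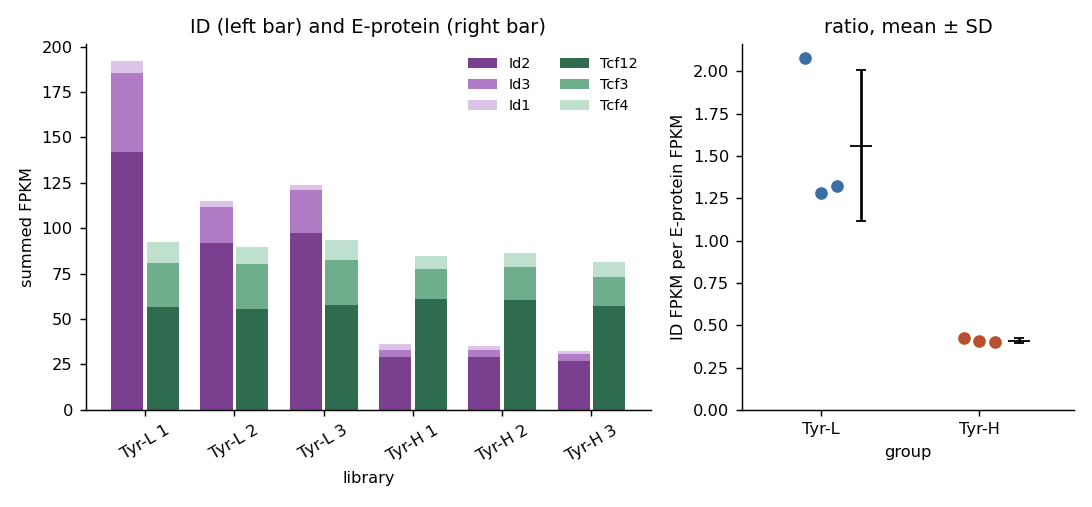
Left, summed FPKM of the ID genes (purple) and of the E-protein genes (green) in each library. Right, ID level per E-protein level in each library (points) with the group mean and SD (n = 3 each). The ID bar is the taller of the pair in the 3 Tyr-L libraries, and the ratio is 1.28 or more in these and 0.424 or less in the Tyr-H libraries.

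Within Tyr-L, the first library stood out for the ID genes, a pattern that was chosen for description after the values were seen and that does not use the difference between the groups. Tyr-L 1 was at 2.09 times the mean of the other Tyr-L libraries for *Id1*, 1.498 times for *Id2* and 2.00 times for *Id3*. Among all 11026 genes that averaged 1 FPKM or more, 173 (1.57%) were at least 1.25-fold higher in Tyr-L 1 than in each of the other Tyr-L libraries. Of the 48 members and pathway genes at that level 6 were, namely the 3 ID genes, *Smad6*, an inhibitory SMAD that BMP signalling induces, *Smad9*, a BMP-regulated SMAD, and *Atoh8*, a helix-loop-helix factor. *Smad9* reached that level only through Tyr-L 1, with a mean of 1.04 FPKM over all libraries and 0.858 FPKM without it. For the last 3, Tyr-L 1 was at 1.55 (*Smad6*), 1.59 (*Smad9*) and 1.45 (*Atoh8*) times the mean of the other Tyr-L libraries. *Tal1*, which is below that level and not among the 48, *Tcf3* and *Tcf12* showed no such rise, with ratios of 0.98, 0.99 and 1.00. *Tcf4* was at 1.11, under the 1.25-fold limit, and the BMP pathway genes *Smad5*, *Smad7* and *Bambi* were at 0.98, 1.02 and 1.04. None of the 48 stood out in this way in Tyr-L 2 or Tyr-L 3, where 0.889% and 0.671% of all genes did. In the Tyr-H libraries, *Id1* and *Atoh8* did in Tyr-H 1 (1.12% of all genes), *Smad9* in Tyr-H 2 (1.3%) and none in Tyr-H 3 (1.92%). *Id2* and *Id3* were not raised in Tyr-H 1, at 1.04 and 0.96 times the mean of the other Tyr-H libraries, against 1.66 times for *Id1*. The source of the pattern was not tested.

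**Figure D3:**
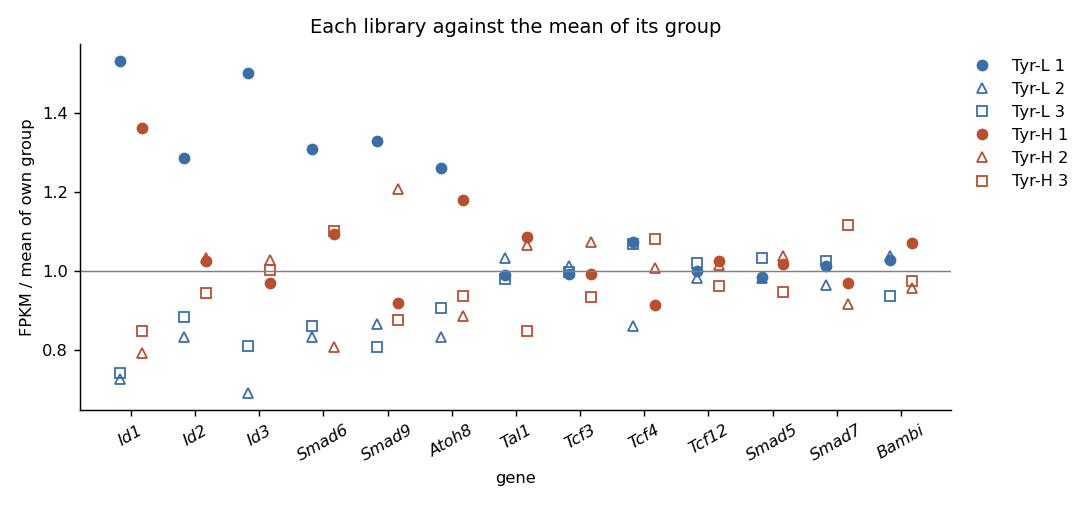
FPKM in each library divided by the mean of its own group (linear axis) for the ID genes, *Smad6*, *Smad9*, *Atoh8* and 7 other genes. Tyr-L 1 (filled blue circles) is at 1.26 or more for the first 6 genes and between 0.985 and 1.07 for the others.

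Lists of pathway genes were drawn up by their known roles, but with earlier results of these data known. They held 122 genes, of which 75 were listed and 50 tested. Of these 50, 3 were called lower and 0 higher in Tyr-H cells, a split that depended on scaling: quantile normalization called 1 lower (*Gdf7*) and 2 higher (*Gata3* and *Hey2*), and median ratio scaling called 3 lower and 1 higher (*Hey2*). *Gdf7* and *Hey2* entered the fit only through the group where they were higher, so their calls are a description. At an adjusted p of at most 0.05 without the fold threshold, 24 were lower and 10 higher, and 16 did not pass, beside 39.9% lower and 17.9% higher among all tested genes. Their median log2 change was -0.19, against -0.15 over all tested genes. Adjusted p-values of these genes are from limma over all tested genes.

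Of 10 BMP ligand genes 6, among them *Bmp2*, *Bmp4* and *Bmp7*, were unlisted in every library, and only *Gdf7*, a ligand of the growth and differentiation factor group, was tested. *Gdf7* gave 0.285, 0.283 and 0.481 FPKM across the Tyr-L libraries, against 0.0224, 0.110 and 0.137 across the Tyr-H libraries. The Tyr-H values were under or near the floor of 0.0954 to 0.112 FPKM. Their mean of 0.0898 FPKM was under the 0.1 FPKM limit of the fit, which *Gdf7* entered only through Tyr-L. Its call is therefore a description (log2 change -1.27, SE 0.35), and it was lost without Tyr-L 3 (-1.07) and without Tyr-H 1 (-0.98). Among 9 tested BMP receptors and co-receptors 0 were called, 3 passed the adjusted p of 0.05 as lower and 1 as higher. *Eng*, the co-receptor endoglin and the most abundant of them, averaged 74.4 ± 1.93 FPKM in Tyr-L against 75.2 ± 1.49 in Tyr-H (SD, n = 3 each; adjusted p = 0.718), and overlaps *Fpgs* on the opposite strand. *Bmpr1a*, a type I BMP receptor, had 12.8 ± 0.545 and 13.4 ± 0.518 FPKM (SD, n = 3 each; adjusted p = 0.369).

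SMAD genes moved in different directions. *Smad9* gave 1.98, 1.29 and 1.20 FPKM across the Tyr-L libraries, against 0.552, 0.726 and 0.527 across the Tyr-H libraries, without overlap, and was called lower (log2 change -1.16, SE 0.22, adjusted p = 0.00144). *Smad6* gave 3.16, 2.01 and 2.07 FPKM across the Tyr-L libraries, against 1.09, 0.809 and 1.10 across the Tyr-H libraries, and was called lower with a log2 change of -1.17 (SE 0.20, adjusted p = 0.000779). Both calls were lost without Tyr-L 1, where the log2 changes were -0.95 for *Smad9* and -0.97 for *Smad6*, under the threshold. The other SMADs are named after their values were seen. *Smad5*, the most abundant BMP-regulated SMAD in Tyr-L cells, fell from 36.8 ± 1.05 to 22.4 ± 1.07 FPKM (SD, n = 3 each; log2 change -0.72, adjusted p = 2.53e-06). *Smad1*, its close relative, had 5.29 ± 0.456 and 5.46 ± 0.567 FPKM (SD, n = 3 each), a log2 change of 0.04 (SE 0.10, adjusted p = 0.718). *Smad4*, the partner common to BMP and TGF-beta signalling, rose from 21.4 ± 0.948 to 28.3 ± 0.525 FPKM (SD, n = 3 each; adjusted p = 5.39e-05). Of 7 tested BMP inhibitors, *Smad6* among them, 2 were lower and 2 higher at an adjusted p of at most 0.05, with a median log2 change of 0.03.

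**Figure D4:**
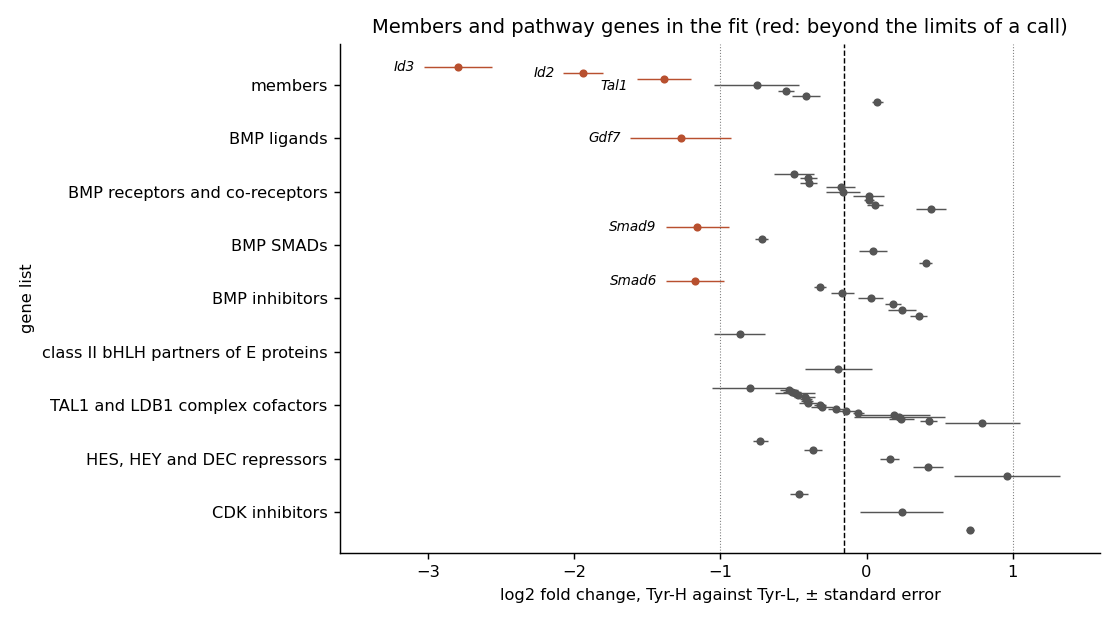
Log2 change (Tyr-H against Tyr-L) with its standard error for the members and the pathway genes that entered the fit, by list. Dotted lines mark a change of 1 in either direction, the dashed line the median of all tested genes (-0.15), and red the called genes, which are *Id3*, *Id2*, *Tal1*, *Gdf7*, *Smad9* and *Smad6*.

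Of 43 genes for tissue-restricted helix-loop-helix factors that pair with E proteins, as TAL1 does, 31 were unlisted in every library and 2 were tested. *Atoh8* gave 3.61, 2.38 and 2.59 FPKM across the Tyr-L libraries, against 1.78, 1.34 and 1.41 across the Tyr-H libraries and was lower, below the fold threshold (log2 change -0.87, SE 0.17, adjusted p = 0.00217). *Scx*, encoding scleraxis, had 0.320 ± 0.0144 and 0.269 ± 0.0399 FPKM (SD, n = 3 each; adjusted p = 0.497) and overlaps *Bop1* on the opposite strand. With a mean of 0.987 FPKM, *Tal1* in Tyr-L cells was therefore above *Scx* and below *Atoh8*.

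Genes for components and cofactors of TAL1 and LDB1 complexes numbered 26, of which 19 were tested. None was called, and at an adjusted p of at most 0.05 12 were lower and 3 higher, with a median log2 change of -0.32. *Hdac2*, a histone deacetylase and the most abundant of them, fell from 93.6 ± 2.07 to 70.1 ± 3.41 FPKM (SD, n = 3 each; log2 change -0.42, adjusted p = 2.82e-05). *Cbfb*, the partner subunit of RUNX factors, had 49.6 ± 1.20 and 47.7 ± 1.39 FPKM (SD, n = 3 each; adjusted p = 0.214). Named after their values were seen, *Ldb1*, the bridging protein of these complexes, fell from 47.0 ± 0.961 to 37.7 ± 1.68 FPKM (SD, n = 3 each; adjusted p = 0.00016) and overlaps *Pprc1*. The LIM-only genes other than *Lmo2* were *Lmo1*, which fell from 18.2 ± 1.46 to 12.7 ± 0.286 FPKM (adjusted p = 9.57e-05), *Lmo4*, which rose from 20.4 ± 1.07 to 27.5 ± 1.79 FPKM (adjusted p = 0.000213; SD, n = 3 each), and *Lmo3*, which was unlisted. *Gata1*, the erythroid GATA factor, was also unlisted in all 6 libraries, and *Gata2*, its counterpart in blood progenitors, had 0.524 ± 0.165 and 0.595 ± 0.0977 FPKM (SD, n = 3 each; adjusted p = 0.55). *Gata3*, a GATA factor of T cells, was higher in Tyr-H without overlap, at 0.183 ± 0.0572 and 0.383 ± 0.0372 FPKM (SD, n = 3 each; log2 change 0.79, SE 0.26, adjusted p = 0.0252). It overlaps other annotated genes and was called with quantile normalization (1.00) and with a pseudocount of 0.01 FPKM (1.07).

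Other helix-loop-helix repressors and CDK inhibitors changed in both directions. Of 5 tested HES, HEY and DEC repressors, helix-loop-helix proteins that act mostly without E proteins, 2 were lower and 2 higher at an adjusted p of at most 0.05. *Hey2*, a Notch target, was among the higher, at 0.0675 ± 0.0713 and 0.209 ± 0.0247 FPKM (SD, n = 3 each; log2 change 0.96, SE 0.36), with Tyr-L 2 and Tyr-L 3 under the floor of 0.0532 to 0.0622 FPKM. Its Tyr-L mean was under the 0.1 FPKM limit of the fit. *Hey2* entered the fit only through Tyr-H, so its difference is a description. *Bhlhe41* fell from 27.6 ± 0.136 to 16.7 ± 1.05 FPKM (SD, n = 3 each; log2 change -0.73, adjusted p = 3.9e-06) and *Bhlhe40* from 29.9 ± 2.60 to 23.1 ± 0.0507 FPKM (SD, n = 3 each; log2 change -0.37, adjusted p = 0.000655). Both encode DEC repressors of the circadian clock. Of 3 tested CDK inhibitors, *Cdkn1a*, encoding p21 and a known E-protein target, rose from 92.1 ± 1.15 to 150.5 ± 1.01 FPKM (adjusted p = 2.66e-07, log2 change 0.71; SD, n = 3 each). *Cdkn2c*, encoding p18, fell from 27.6 ± 1.48 to 20.04 ± 1.56 FPKM (SD, n = 3 each; log2 change -0.46, adjusted p = 0.000227). *Cdkn2a* and *Cdkn2b* were unlisted in every library.

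The genomic neighbours of *Id2*, *Id3* and *Tal1* were not called. Within 200 kb of *Id2* 2 genes were tested, *Kidins220*, a neurotrophin receptor adaptor 30647 bases away (log2 change -0.46), and *Mboat2*, a lysophospholipid acyltransferase (-0.25). Around *Id3* 11 genes had log2 changes from -0.50 to 1.06 with a median of -0.07, and the nearest was *E2f2*, a cell cycle transcription factor, at -0.20 (SE 0.08). The next 5 were *Rpl11*, a ribosomal protein gene (0.0048), *Tcea3* (0.25) and *Tceb3* (-0.29), both for transcription elongation factors, the antisense gene *Gm13008* (1.06, SE 0.77) and the zinc finger gene *Zfp46* (-0.07). Around *Tal1* 5 genes ranged from -0.60 to 0.73, with *Cmpk1*, a nucleotide kinase gene, at -0.01, *Foxd2os* at -0.60 and *Foxd2*, a forkhead factor gene, at -0.33. *Stil*, the centriole gene next to *Tal1*, averaged 6.34 ± 0.441 FPKM in Tyr-L against 4.81 ± 0.260 in Tyr-H (SD, n = 3 each; log2 change -0.39, adjusted p = 0.00244). *Pdzk1ip1*, on the other side, went the other way, from 0.597 ± 0.0534 to 1.05 ± 0.0590 FPKM (SD, n = 3 each; log2 change 0.73, adjusted p = 0.00381).

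Genes with the most similar profile were sought by Pearson's r of log2(FPKM + 0.1) over the 6 libraries among 11020 genes, as a description. *Jam3* (r = 0.999), *Dimt1* (0.998) and *Ankrd26* (0.998) were most like *Id2*, *Gm12346* (0.9995), *Gmcl1* (0.998) and *Kin* (0.998) most like *Id3*, and *Limch1* (0.9997), *Lmnb1* (0.999) and *Trub2* (0.999) most like *Tal1*. The difference between the groups carries most of such an r, and an r above 0.95 was reached by 2364 genes for *Id2*, 1987 for *Id3* and 2854 for *Tal1*. Of the 9 genes *Limch1* was called lower in Tyr-H cells, with 26.9 ± 0.292 and 12.2 ± 0.995 FPKM (SD, n = 3 each; log2 change -1.14), and the others had log2 changes of -0.35 to -0.85.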

How the data were processed

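The submitters' processing notes name Trimmomatic and HISAT2 (also HISAT) and build GRCm38.p6. The quantifier and annotation are not given in the sources used here. The authors deposited FPKM per gene and library, and no counts. Depth was estimated from the steps between the lowest values of genes with 1 transcript of at least 1500 nt. Groups came from the sample titles. Python 3.11.15 (numpy 2.4.6, pandas 2.3.3, matplotlib 3.10.9) joined the tables, unlisted values set to 0, and R 4.3.3 with limma 3.58.1 (variance trend, Benjamini-Hochberg adjustment over all 14336 genes) fitted the difference. Coordinates are from GENCODE M21, 1-based. Whether reads were counted by strand is not given, so overlapping genes are uncertain.

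The members, lists and tests were chosen with earlier results of these data known. Named are all members, per pathway list the called genes (at most 6) or otherwise the 2 most abundant tested genes, per called member the 3 most similar genes, and neighbours within 200 kb (nearest 6). Other named genes were chosen after their values were seen. Alternatives were pseudocounts of 0.01 and 1 FPKM, other filters, rescaling, median ratio and quantile scaling, no variance trend, a replicate block and leaving out each library. The authors' supplementary lists were not used. The procedure was tested on simulated data.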

Additional observations from a re-analysis of the deposited data

How the results depend on the processing

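The number of members called was 3 in every setting but a pseudocount of 1 FPKM and a minimum mean of 1 FPKM, which gave 2 and lost *Tal1* (log2 fold change -0.59 with the former, not tested with the latter). The members were selected with this contrast in the same libraries known, so these values show the effect of each setting and no independent stability. Over the 15 alternatives the log2 fold changes of *Id1*, *Id2*, *Id3*, *Tcf3* and *Tcf4* ranged from -0.99 to -0.40, -2.06 to -1.74, -3.02 to -2.46, -0.65 to -0.40 and -0.52 to -0.26. The calls among pathway genes (*Gdf7*, *Smad6*, *Smad9*, 3 lower) became 5 with a pseudocount of 0.01 FPKM (adding *Myb* lower and *Gata3* higher), 0 with 1 FPKM and 5 when libraries were rescaled to 1000000 FPKM (adding *Myb* lower and *Hey2* higher). Median ratio scaling added *Hey2* (higher). Quantile normalization shared 1 call, *Gdf7*, and called *Gata3* and *Hey2* higher. Leaving out each library gave 2 to 3 calls, and without Tyr-L 1 these were *Gdf7* (lower) and *Hey2* (higher, 1.29). *Smad9*, *Smad6* and *Gdf7* fell to -0.62, -0.76 and -0.31 with 1 FPKM added, and quantile normalization gave -0.98 for *Smad9* and -0.998, just under the threshold, for *Smad6*. The cause was not tested.

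Genes with changes near 0 changed sign. Rescaling gave -0.021 for *Tcf12*, -0.079 for *Eng*, -0.034 for *Bmpr1a* and -0.049 for *Smad1*, where median ratio scaling gave 0.23, 0.17, 0.21 and 0.20. Quantile normalization gave 0.041 for *Scx* and 0.032 for *Cbfb*, and median ratio scaling gave 0.10 for *Cbfb*. Leaving out 1 library in turn gave -0.0029 to 0.034 for *Eng*, with -0.0002 without Tyr-H 2, and -0.038 to 0.10 for *Smad1*, with -0.020 without Tyr-L 2.

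Over all tested genes 1254 were called, 388 with a pseudocount of 1 FPKM and 640 with a mean of at least 1 FPKM. Of the calls 33.9% were higher in Tyr-H (425 higher, 829 lower), 48.4% after median ratio scaling (544 and 580), 55.2% after quantile normalization (610 and 496) and 47.7% with a pseudocount of 1 FPKM. The median of all genes was -0.01 after either scaling. The sources used here do not say whether same-numbered libraries were prepared together, and this was not tested. Over all tested genes, deviations of same-numbered libraries correlated at 0.022, 0.013 and -0.083. With the number as a block, 3 members, 3 pathway genes and 1258 genes were called. In that fit the SE went from 0.29 to 0.12 for *Id1* and from 0.17 to 0.12 for *Atoh8*. For *Tal1* it rose from 0.18 to 0.21. Without counts, the floor is approximate and limits *Lyl1*, *Lmo2*, *Id4* and *Gdf7* most.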
